A study of Homo sapiens with 17 samples.

Results

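The genes described here are 9 members of the MAGE (melanoma antigen) cancer-testis family: MAGEA1, MAGEA3, MAGEA4, MAGEA6, MAGEA10 and MAGEA12 of the A subfamily, MAGEB2 of the B subfamily, and MAGEC1 and MAGEC2 of the C subfamily. They were taken by symbol from a count table of 63187 genes, with no minimum count, and all 9 were in it. Each of the 9 had at least 1 count in at least 1 library and so was among the 34824 genes tested. Of the 58372 accessibility peaks with counts, 0 were annotated to a member.

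The cells were HepG2, an established line from a human hepatocellular carcinoma, labelled wild type. They received 0, 2 or 10 µM 5-azacytidine for 4 days with the medium changed every day. 5-azacytidine is a cytidine analogue that is built into nucleic acid and traps DNA methyltransferases on DNA. RNA was sequenced in 9 libraries, 3 per dose, and 8 ATAC-seq libraries, 2 of them at 10 µM, measured open chromatin, the DNA that a transposase can reach. The series calls the replicates biological without saying that they were separate cultures, so the p-values measure the spread between these libraries.

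MAGE proteins share a MAGE homology domain, by which many of them bind RING-type ubiquitin ligases and change what those ligases modify. The type I genes, among them all 9 studied here, lie on the X chromosome, are expressed mainly in testis and placenta, and are silent in most other tissues, where their promoters are methylated. They are called cancer-testis genes because many tumours express them again, and peptides of several MAGE-A proteins are known antigens of T cells.

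The sequences before the gene starts are shown because these CpG-bearing promoters are where DNA methylation is known to silence the family. RefSeq (GRCh38.p14) promoter windows were found for 7 of the 9 members: MAGEA3, MAGEA4, MAGEA6, MAGEA12, MAGEB2, MAGEC1 and MAGEC2. Capitals mark CCGGAA or CCGGAT on either strand, 2 forms of the core bound by ETS family transcription factors. CCGGAT was added to the search after the sequences had been seen. Each line reads 5′ to 3′ on the gene's strand and ends at the last base before the start. MAGEA12 is shown only as far as the neighbouring gene CSAG1, and MAGEA4 and MAGEA12 at the first of their several RefSeq starts.
MAGEA3: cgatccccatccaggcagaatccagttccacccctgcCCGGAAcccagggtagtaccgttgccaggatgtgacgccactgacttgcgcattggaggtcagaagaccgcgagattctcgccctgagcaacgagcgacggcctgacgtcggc
MAGEA6: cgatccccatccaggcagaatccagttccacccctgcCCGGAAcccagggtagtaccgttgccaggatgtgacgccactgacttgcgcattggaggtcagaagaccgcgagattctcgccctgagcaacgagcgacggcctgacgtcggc
MAGEA12: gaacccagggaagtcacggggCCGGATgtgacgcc
MAGEA4: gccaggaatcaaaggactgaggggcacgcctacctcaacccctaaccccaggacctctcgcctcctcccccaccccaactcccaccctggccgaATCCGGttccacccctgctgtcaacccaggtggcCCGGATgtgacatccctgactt
MAGEB2: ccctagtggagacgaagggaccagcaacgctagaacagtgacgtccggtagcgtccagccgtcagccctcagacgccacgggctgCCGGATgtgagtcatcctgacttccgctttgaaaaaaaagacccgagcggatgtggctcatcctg
MAGEC2: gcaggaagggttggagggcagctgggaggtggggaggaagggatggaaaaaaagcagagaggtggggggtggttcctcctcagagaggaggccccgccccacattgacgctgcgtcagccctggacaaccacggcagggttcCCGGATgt
MAGEC1: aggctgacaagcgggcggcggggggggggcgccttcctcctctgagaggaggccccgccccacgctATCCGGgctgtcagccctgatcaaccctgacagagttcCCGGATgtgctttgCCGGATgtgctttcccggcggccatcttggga

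The regions shown are chrX:152698644-152698793 for MAGEA3 (plus strand), chrX:152769690-152769839 for MAGEA6 (minus strand), chrX:152733722-152733756 for MAGEA12 (plus), chrX:151912324-151912473 for MAGEA4 (plus), chrX:30215413-30215562 for MAGEB2 (plus), chrX:142205291-142205440 for MAGEC2 (minus) and chrX:141903744-141903893 for MAGEC1 (plus). The 250 bases before the start were the same letter for letter in MAGEA3 and MAGEA6. No other pair of members shared a run longer than the 27 bases that each of those genes has in common with MAGEA12. The letters CCGGATGTGA occurred in MAGEA4, MAGEA12 and MAGEB2, and MAGEB2 and MAGEC1 shared the run TGCCGGATGTG.

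CCGGAT, on either strand, was present in the 250 bases before the start in MAGEA4, MAGEA12, MAGEB2, MAGEC1 and MAGEC2, and it was present in 5.85% of all 35116 windows of that length in the table. It lay 8 bases before the start in MAGEC2, 14 before in MAGEA12 and 65 before in MAGEB2, counted to its first base. MAGEA4 held 2 copies and MAGEC1 held 3. The windows of all 5 RefSeq starts of MAGEA4 held it. CCGGAT was chosen after these sequences had been seen, so its share among the members is no test against all windows. Among other type I MAGE genes it was present before a start of MAGEA2, MAGEA2B, MAGEA8, MAGEA9, MAGEA9B, MAGEA11, MAGEB1, MAGEB10 and MAGEB16. It was absent in MAGEB3, MAGEB4, MAGEB5, MAGEB6, MAGEB6B, MAGEB18 and MAGEC3. MAGEA2B and MAGEB16 held it and had no count in any library. MAGEA3 and MAGEA6 held CCGGAA 113 bases before the start, which 14.5% of all windows held, and their sequence has no CCGGAT in this window. GGGCGG, the core bound by SP1, was found in 42.6% of all windows and, among the members, in MAGEC1 (2 matches) and MAGEC2 (1 match), and at 4 of the starts of MAGEA4. CACGTG, the E-box, was found in 6.34% of all windows and in none of the members' windows.

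The number of CG dinucleotides in the 250 bases before the first start was 15 in MAGEA3, MAGEA6 and MAGEB2. It was 11 in MAGEC1, 6 in MAGEA4 and MAGEC2, and 5 in MAGEA12, against a median of 11 over all windows. At the later starts it was 7, 11, 12 and 14 in MAGEA4 and 13 in MAGEA12. The members' windows thus lie between the 36.2th and the 58.1th percentile of CG number.

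**Figure D1:**
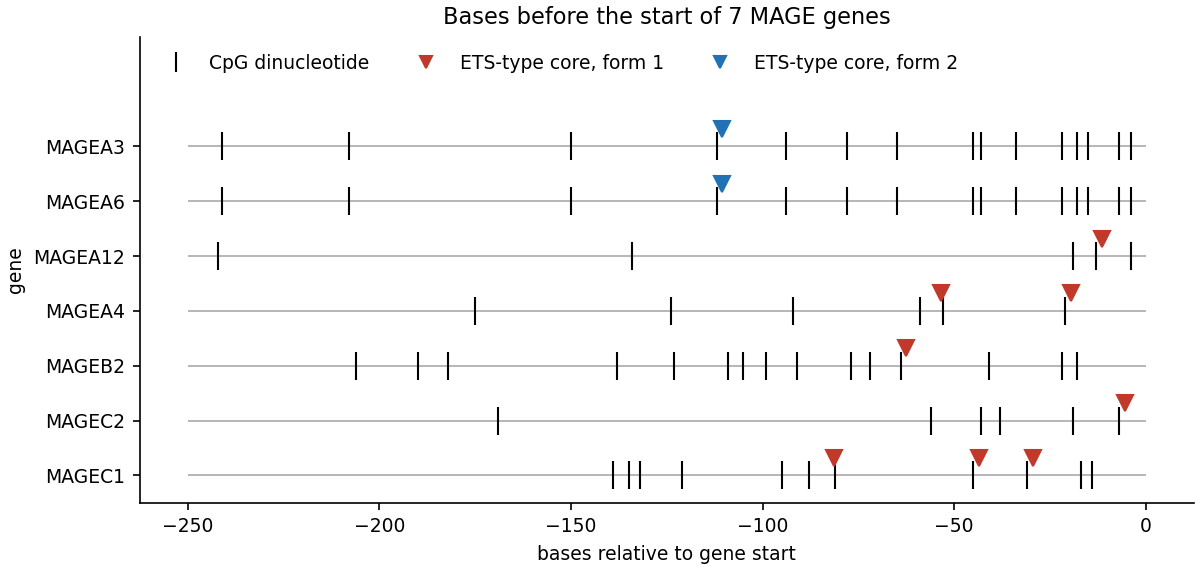
Positions of CG dinucleotides (black ticks) and of the 2 ETS-type cores (triangles; form 1, red, is CCGGAT and form 2, blue, is CCGGAA) in the 250 bases before the first RefSeq start of the 7 members with a window; the x axis is the distance from the start in bases. MAGEA3 and MAGEA6 have the same map, and the red triangles of MAGEC2 and MAGEA12 lie nearest the start.

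The RNA libraries held 35553052 to 46430168 counts. Replicates 3 at 0 and 2 µM stood apart by the share of counts from mitochondrial mRNA genes, 0.275% and 0.235% against 0.0683% to 0.15% in the other 7, and each call of a member that changes without both is given both ways. All 17 hepatocyte marker genes had counts. Their summed level at 0 µM was 43288 to 70381 CPM (counts divided by library size and scaled by edgeR's TMM factors, not divided by gene length). It was 23975 to 39679 CPM at 2 µM, where 5 of the 17 genes were called lower, and 1587 to 2484 CPM at 10 µM, where 16 were. The share of all genes called lower was 1.93% at 2 µM and 14.1% at 10 µM. In bulk RNA, fewer cells of a type and less RNA per cell cannot be told apart.

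At 10 µM against 0 µM, 5 of the 9 members rose (edgeR quasi-likelihood test, Benjamini-Hochberg adjusted p under 0.05): MAGEA3, MAGEA6, MAGEA12, MAGEB2 and MAGEC2. No member fell by edgeR or by DESeq2 in any comparison, and 0 were lower at an unadjusted p under 0.05. Of all genes tested, 13.1% were called higher and 14.1% lower in this comparison. At 2 µM against 0 µM, 1 of the 9, MAGEA3, rose, where 2.96% of all genes were called higher and 1.93% lower. At 10 µM against 2 µM, 1 of the 9, MAGEC2, rose, where 9.37% of all genes were called higher and 12.3% lower. The 3 comparisons share libraries and are not independent of each other.

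The members' median fitted log2 change was 1.92 at 2 against 0 µM, 2.97 at 10 against 0 µM and 0.99 at 10 against 2 µM, and the median of all genes tested was 0.00 in each. The fitted change of a gene with no count at 1 dose depends on a small count that edgeR adds. With such genes at the bound set by a floor of 3 counts over a dose's 3 libraries, and members at or under 3 counts at both doses left out, the medians were 2.13 over 6 members, 2.65 over 7 and 0.57 over 7. In CPM, those 3 counts are 0.0271 at 0 µM, 0.0235 at 2 µM and 0.021 at 10 µM. Only MAGEA3, MAGEA6 and MAGEB2 passed edgeR's filter on low counts. MAGEA3 passed it through its treated libraries alone, and MAGEB2 through its 10 µM libraries alone.

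**Figure D2:**
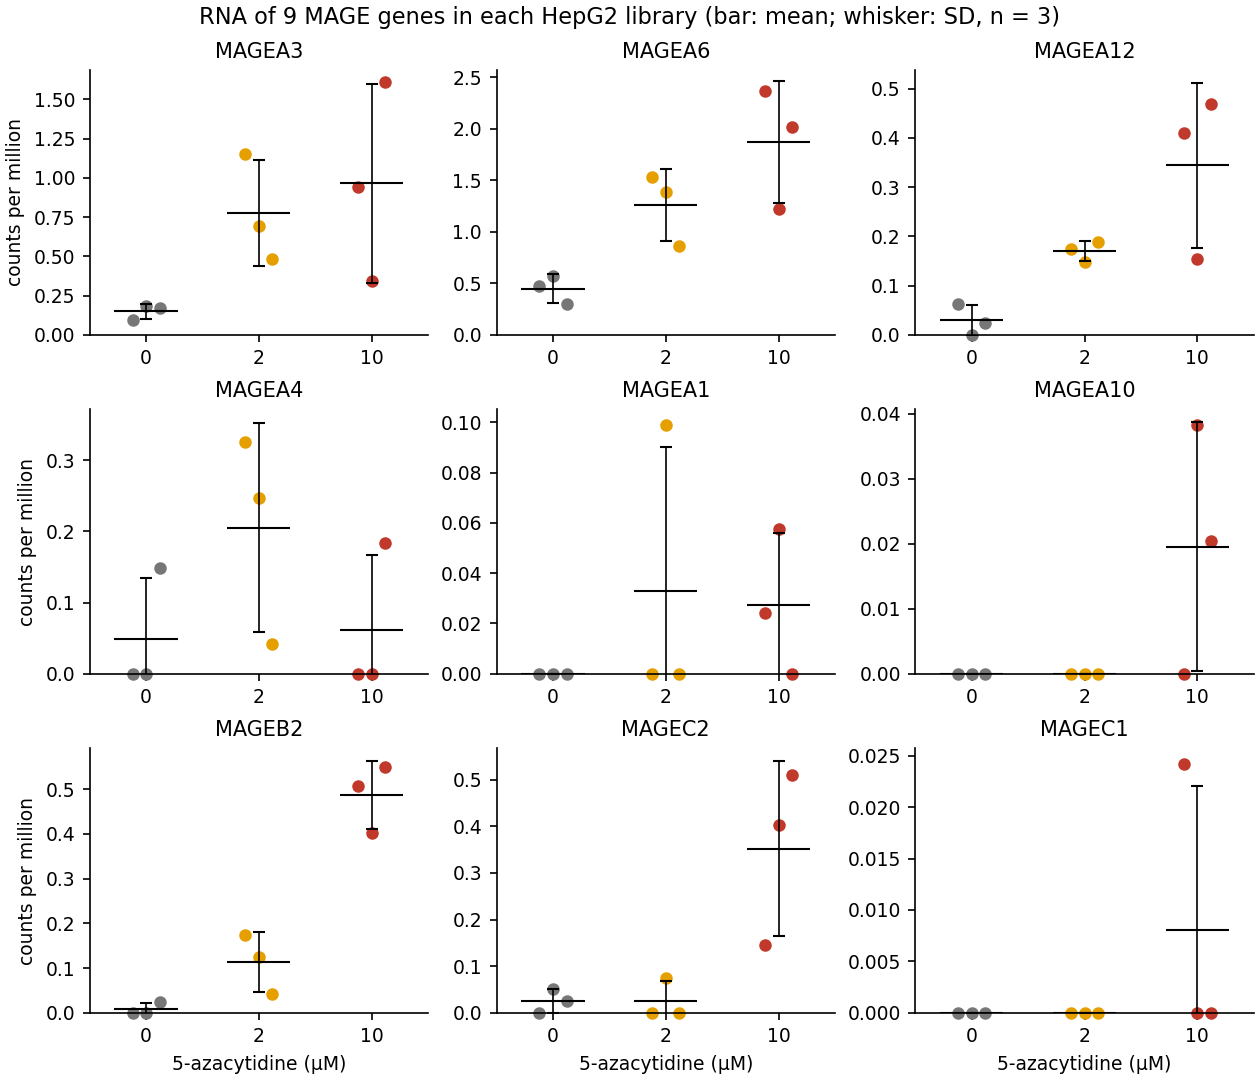
RNA level in CPM (y axis, from 0, own scale for each gene) at each 5-azacytidine dose (x axis) for the 9 members. Each point is 1 library, the bar is the mean and the whisker the SD of 3 libraries, drawn only above 0. In MAGEA3, MAGEA6, MAGEA12, MAGEB2 and MAGEC2 every 10 µM library lies above every 0 µM library. In that comparison 13.1% of all genes were called higher by edgeR, and the share of all genes separated in this way is not given here.

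MAGEA3 and MAGEA6 encode near-identical proteins that are known to bind the ligase TRIM28 and to direct it to new substrates. Their transcripts are so alike that reads may have been split between the copies or dropped, and each gene's own value is uncertain because the sources used here do not say how such reads were counted. They lie 70.9 kb apart from end to end in Xq28, MAGEA3 at chrX:152698794-152702347 and MAGEA6 at chrX:152766136-152769689.

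MAGEA3 had 3, 7 and 7 counts in the 0 µM libraries, 46, 28 and 23 at 2 µM, then 39, 18 and 79 at 10 µM. All 6 treated libraries were above all 3 untreated ones, while the 2 and 10 µM libraries overlapped. The means were 0.15 ± 0.0481, 0.776 ± 0.342 and 0.965 ± 0.633 CPM (SD, n = 3 each). At 2 µM MAGEA3 rose by log2 2.33 (SE 0.639, adjusted p = 0.00832). Its rise at 10 µM was 2.65 (SE 0.638, adjusted p = 2.32e-04). Between 10 and 2 µM the log2 difference was 0.32 (SE 0.556, adjusted p = 0.747). With the filter on low counts the 2 µM difference no longer passed (adjusted p = 0.0665), nor with the first 0 µM library left out (0.0602) or the first 2 µM library (0.101). The 10 µM call was kept under all 17 alternatives.

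MAGEA6 had 15, 22 and 12 counts at 0 µM, 61, 56 and 41 at 2 µM, then 98, 64 and 99 at 10 µM. Again no treated library was as low as an untreated one, and the 2 treated doses overlapped. The means were 0.446 ± 0.14, 1.26 ± 0.351 and 1.87 ± 0.586 CPM (SD, n = 3 each). MAGEA6 rose at 10 µM by log2 2.06 (SE 0.507, adjusted p = 3.24e-04), a call kept under all 17 alternatives. At 2 µM the log2 difference was 1.49 (SE 0.506, adjusted p = 0.0617), which did not pass. The replicate numbers pair the 0 and 2 µM libraries, and with the number as a block over those 2 doses MAGEA6 passed at 2 µM (log2 1.49, adjusted p = 0.0357), so that 2 members were called. It also passed without both replicates 3 of 0 and 2 µM (log2 1.47, adjusted p = 0.0432).

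Summing the 2 copies into 1 gene removes the question of how counted reads were split between them. It does not bring back reads that may have been dropped, so the pair's level stays uncertain. The sum rose at 2 µM by log2 1.76 (SE 0.456, adjusted p = 0.004). Its rise at 10 µM was 2.24 (SE 0.458, adjusted p = 9.09e-06). At 10 against 2 µM the difference was 0.48 (SE 0.424, adjusted p = 0.481). Of the pair's counts, MAGEA3 took 25.8% of 66 at 0 µM (exact binomial 95% interval 15.8% to 38%), 38% of 255 at 2 µM (32.1% to 44.3%) and 34.3% of 397 at 10 µM (29.6% to 39.2%). These intervals, which cover counting error only, overlap at the 3 doses. Between libraries of 1 dose the share ranged as widely, from 22% to 44.4% at 10 µM.

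MAGEA12, another A-subfamily antigen gene, lies between them at chrX:152733757-152737669. It had 2, 0 and 1 counts at 0 µM, 7, 6 and 9 at 2 µM, then 17, 8 and 23 at 10 µM. The untreated libraries were all below the treated ones, and 10 µM replicate 2 lay within the range at 2 µM. Mean levels were 0.0292 ± 0.0317, 0.171 ± 0.0208 and 0.344 ± 0.168 CPM (SD, n = 3 each). MAGEA12 rose at 10 µM by log2 3.50 (SE 1.08, adjusted p = 0.00605). The ratio of summed counts, scaled by library size, was 12.4, with an exact 95% counting interval of 4.01 to 62.4, since only 3 counts stood at 0 µM. Leaving out 0 µM replicate 2 raised the adjusted p to 0.052, and leaving out 10 µM replicate 3 raised it to 0.0517, so neither fit called the gene. At 2 µM the log2 difference was 2.51 (SE 1.11, adjusted p = 0.239).

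Genes that lie between MAGEA3 and MAGEA6 had few counts. MAGEA2, which has a near-identical copy in MAGEA2B, had counts only in replicate 3 at 2 µM (3) and replicate 3 at 10 µM (16), and MAGEA2B had none. How reads fell between MAGEA2 and MAGEA2B, or were dropped, is uncertain. The interleaved CSAG genes, also cancer-testis genes, had 7 counts or fewer at each dose: over the 3 doses in rising order, CSAG1 had 2, 2 and 7, CSAG2 had 0, 2 and 0, and CSAG3 had 0, 1 and 3. CSAG4, which overlaps MAGEA12, had 0, 4 and 0. These neighbours were chosen after the values had been seen.

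The other A-subfamily members showed no call at either dose. MAGEA4, at chrX:151912474-151925170 and a known T-cell antigen, had 0, 0 and 6 counts at 0 µM, 13, 10 and 2 at 2 µM, then 0, 0 and 9 at 10 µM. Replicate 3 held all of its counts at 0 and at 10 µM and the fewest at 2 µM, so the doses overlapped. Its log2 difference from 0 µM was 1.92 at 2 µM (SE 1.19, adjusted p = 0.533). At 10 µM it was 0.25 (SE 1.24, adjusted p = 0.945). Between 10 and 2 µM the difference was -1.67 (SE 1.14, adjusted p = 0.345). Without 10 µM replicate 3 the last became -6.10 and passed (adjusted p = 0.0314), and the difference at 10 against 0 µM turned to -4.17 (adjusted p = 0.186). Without both replicates 3 of 0 and 2 µM, MAGEA4 passed at 2 µM (log2 6.60, adjusted p = 0.0348).

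MAGEA1, the gene by which the family was discovered, lies at chrX:153179284-153183880 and had no count in the 0 µM libraries. It had 0, 4 and 0 counts at 2 µM, then 1, 3 and 0 at 10 µM. Set over the floor of 3 counts, its 4 counts at either treated dose give scaled ratios of 1.16 at 2 µM and 1.04 at 10 µM. These ratios carry no error for the 4 counts and set no minimum rise. Neither difference passed (adjusted p = 0.575 and 0.329). MAGEA10, at chrX:152133310-152138577, had counts at 10 µM only, with 0, 2 and 1. No fold is given for it, since no dose was above 3 counts. A change in MAGEA1 or MAGEA10 was not detectable at this depth.

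MAGEB2 lies in Xp21 at chrX:30215563-30220089, far from the A subfamily. It had 0, 0 and 1 counts at 0 µM, 7, 5 and 2 at 2 µM, then 21, 21 and 27 at 10 µM. The 3 doses did not overlap, and the 10 µM libraries were close together. Mean levels were 0.00821 ± 0.0142, 0.114 ± 0.0672 and 0.486 ± 0.0763 CPM (SD, n = 3 each). MAGEB2 rose at 10 µM by log2 5.37 (SE 1.2, adjusted p = 5.74e-05), under all 18 alternatives. Because 1 count stood at 0 µM, the count ratio of 53.6 has an exact 95% counting interval of 9.3 to 2147. Such intervals leave out the spread between libraries. At 2 µM the log2 difference was 3.28 (SE 1.29, adjusted p = 0.148), and it passed without both replicates 3 of 0 and 2 µM (log2 5.68, adjusted p = 0.0286). At 10 against 2 µM the log2 difference was 2.09 (SE 0.869, adjusted p = 0.0696), with a count ratio of 4.41 (counting interval 2.46 to 8.49). That difference passed in 5 of 18 alternatives, among them the filter on low counts (adjusted p = 0.0322) and the fit of those 2 doses alone (0.0235). MAGEB2 passed that filter only through the 10 µM libraries, where it was high, so the filtered fit is no separate support.

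MAGEB1, the neighbour of MAGEB2 and no member, had no count at 0 µM, 44, 15 and 9 at 2 µM, then 18, 52 and 24 at 10 µM. It rose at 2 µM (adjusted p = 3.79e-07) and at 10 µM (adjusted p = 9.73e-09). Set over the floor of 3 counts, its summed counts give scaled ratios of 19.7 at 2 µM and 24.3 at 10 µM. These ratios leave out counting error and the spread between libraries, 0.189 to 1.1 CPM at 2 µM, and set no minimum rise. MAGEB3, which lies between MAGEB2 and MAGEB1, and MAGEB4, which overlaps the start of MAGEB1, had no count in any library.

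MAGEC2, at chrX:142202342-142205290, encodes a protein known to bind TRIM28 and raise its ligase activity. It had 0, 2 and 1 counts at 0 µM, 0, 3 and 0 at 2 µM, then 6, 21 and 25 at 10 µM. The 0 and 2 µM libraries overlapped, and all 10 µM libraries lay above both. Mean levels were 0.0255 ± 0.026, 0.0247 ± 0.0429 and 0.352 ± 0.187 CPM (SD, n = 3 each). MAGEC2 rose at 10 µM by log2 3.59 against 0 µM (SE 1.16, adjusted p = 0.00937) and by 3.73 against 2 µM (SE 1.16, adjusted p = 0.00816). The count ratios were 13.5 (4.36 to 67.4) and 15.5 (5.03 to 77.7). Both calls rested on single libraries. Against 0 µM the adjusted p was 0.0506 when 0 µM replicate 1 was left out and 0.107 when 10 µM replicate 3 was. Against 2 µM it was 0.0579 when 2 µM replicate 3 was left out and 0.108 when 10 µM replicate 3 was.

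MAGEC1, which lies at chrX:141903894-141909374 in the same 301 kb stretch as MAGEC2, had 1 count in all, in 10 µM replicate 1. No fold is given for it. Its sequence above holds 3 copies of CCGGAT where that of MAGEC2 holds 1.

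**Figure D3:**
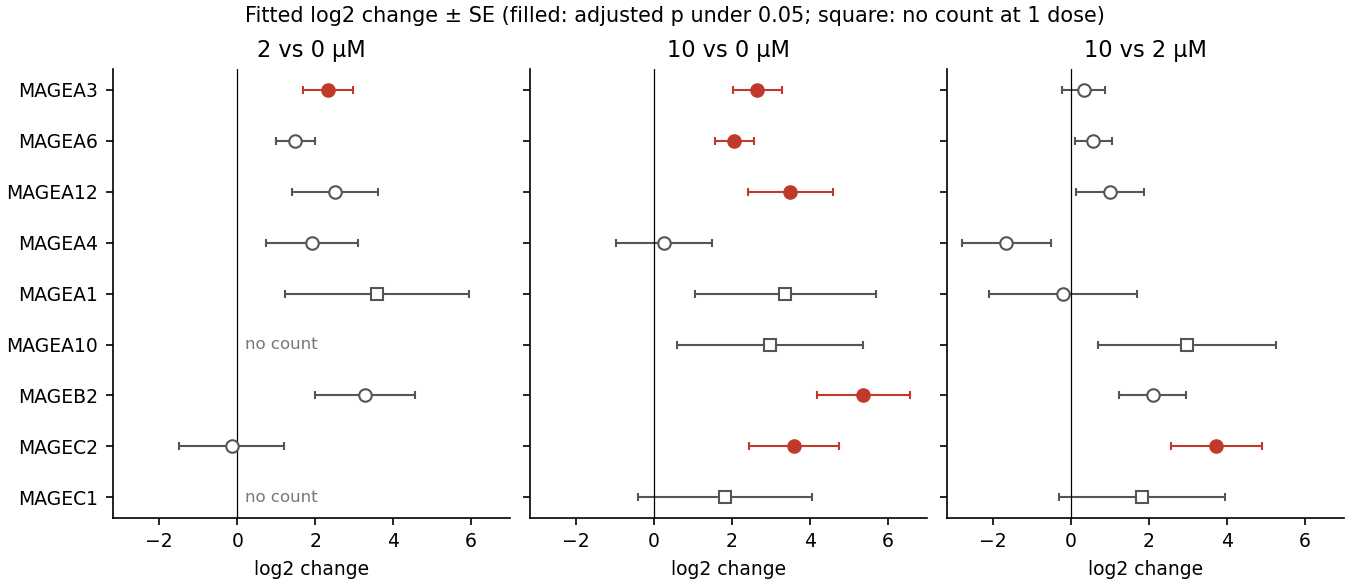
Fitted log2 change (x axis) with its SE for each member in the 3 comparisons. Filled red marks passed at an adjusted p under 0.05, and squares are genes with no count at 1 of the doses, whose fitted value is not a bound. The filled marks are MAGEA3 at 2 against 0 µM, the 5 genes from 2.06 to 5.37 at 10 against 0 µM, and MAGEC2 at 10 against 2 µM.

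Summed over the 9 members, the level was 0.708 ± 0.0899 CPM at 0 µM, 2.58 ± 0.884 at 2 µM and 4.13 ± 1.39 at 10 µM (SD, n = 3 each). The 0 µM libraries lay between 0.629 and 0.806 CPM, the 2 µM libraries between 1.62 and 3.36, and the 10 µM libraries between 2.62 and 5.36. Untreated and treated libraries did not overlap, and the 2 treated doses did. The number of members with at least 1 count was 6 at 0 µM, 7 at 2 µM and 9 at 10 µM, over 3 libraries each. Depth also rose with dose, so the floor of 3 counts fell from 0.0271 CPM at 0 µM to 0.021 at 10 µM. The member added at 2 µM was MAGEA1, with 4 counts, all in replicate 2. Those added at 10 µM were MAGEA10 with 3 counts and MAGEC1 with 1, neither above that floor. The share of all genes with a count at each dose is not given here. Whether more members were expressed at higher dose was not tested.

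MAGEA3 and MAGEA6 together held 66 of the members' 79 counts at 0 µM (83.5%), 255 of 323 at 2 µM (78.9%) and 397 of 583 at 10 µM (68.1%). Counts are not divided by gene length, so these are shares of counted reads, and reads of the pair may have been dropped. In single libraries the pair's share was 67.9% to 93.5% at 0 µM, 75% to 83.1% at 2 µM and 59.9% to 74.9% at 10 µM. The 0 µM range overlapped both treated doses. Every 10 µM library lay below every 2 µM library, but the closest were at 74.9% and 75%, nearer than counting error can tell apart.

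**Figure D4:**
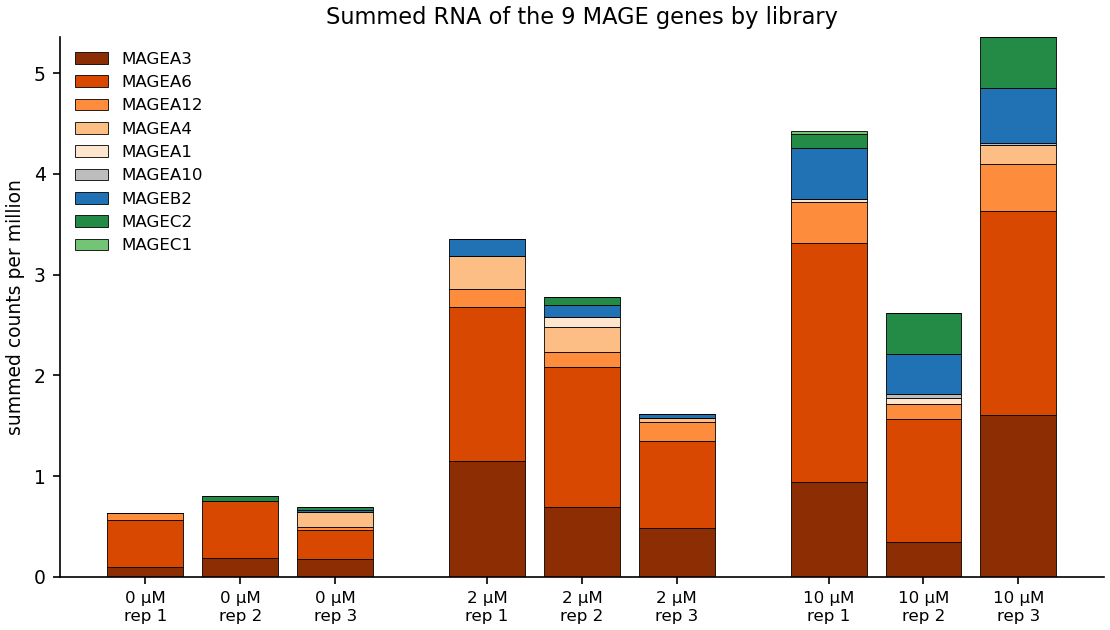
Summed CPM of the 9 members (y axis) in each RNA library (x axis), stacked by gene. MAGEA3 and MAGEA6 (dark orange tones) make up most of every bar, and MAGEB2 (blue) and MAGEC2 (dark green) appear in all 3 bars at 10 µM.

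Over the 9 libraries, the genes whose log2 CPM was most like that of the members' sum, among 14830 genes with a mean of at least 1 CPM at a dose, were ENSG00000275055 (Pearson r = 0.993), CDKN2A (0.99), CAVIN3 (0.989), ENSG00000258976 (0.989) and CCNDBP1 (0.988). CDKN2A encodes cell cycle inhibitors, and CAVIN3 a coat protein of caveolae. CDKN2A was at 1.74, 11.4 and 17.4 CPM on average at 0, 2 and 10 µM. The 9 points share 3 dose groups, and the coefficients are descriptions. Ranked by Spearman's rho, 2 of the 5 stayed among the first 5, and with a pseudocount of 1 CPM in place of 0.1, 1 did.

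Of 18 other type I MAGE genes, 10 had a count, and 2 passed in each comparison with 0 µM: MAGEB1, given above, and MAGEA9B. Both rose, where 2.96% of all genes were called higher at 2 µM and 13.1% at 10 µM. The median log2 change of those 10 was 1.89 at 2 µM and 4.14 at 10 µM, and 3.30 over 4 genes and 1.30 over 8 genes with the bounds applied. MAGEA9B had 0, 0 and 1 counts at 0 µM, 31, 21 and 14 at 2 µM, then 6, 21 and 15 at 10 µM. It has a near-identical copy in MAGEA9, with 1 count at 2 µM and 1 at 10 µM, so how reads fell between them is uncertain. MAGEA9B rose by log2 5.48 at 2 µM (adjusted p = 6.81e-05) and by 4.61 at 10 µM (adjusted p = 3.72e-04). MAGEA8 had 4, 24 and 9 counts over the libraries of the 3 doses and did not pass. MAGEA2 did not pass at 10 µM (adjusted p = 0.0569), nor did MAGEB17, with 0, 0 and 10 counts (0.139).

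The type II MAGE genes are expressed in many tissues and are not cancer-testis genes. Of 11 on the list, 10 had counts, and their summed level was 387 to 525 CPM at 0 µM and 185 to 213 CPM at 10 µM. At 10 µM 2 rose and 2 fell, with a median log2 change of -0.04, where 13.1% of all genes were called higher and 14.1% lower. MAGED1, an adaptor known from p75 neurotrophin receptor signalling, fell from 199 ± 42.7 to 22.4 ± 1.58 CPM (SD, n = 3 each; log2 -3.15, adjusted p = 1.99e-36). It also fell at 2 µM (log2 -0.94, adjusted p = 0.00129), a call lost with the filter on low counts (0.0953) and without 2 µM replicate 2 (0.108). MAGED2 fell at 10 µM by 1.42 on the log2 scale (adjusted p = 7.66e-09). NDN, near silent at 0 µM, had 0, 0 and 1 counts there, 8, 11 and 9 at 2 µM, then 1, 2 and 15 at 10 µM. Its log2 differences from 0 µM were 4.24 at 2 µM (SE 1.41, adjusted p = 0.052) and 3.42 at 10 µM (SE 1.43, adjusted p = 0.0594). Neither passed. NSMCE3, a subunit of the SMC5/6 complex, rose by 0.80 (adjusted p = 0.0102) and MAGEE1 by 1.01 (adjusted p = 0.0214) at 10 µM. Both of those calls depended on single libraries: NSMCE3 missed the threshold when 0 µM replicate 3 (adjusted p = 0.0797) or 10 µM replicate 2 (0.0516) was left out. MAGEE1 missed it when 0 µM replicate 3 (0.104) or 10 µM replicate 3 (0.253) was, and without both replicates 3 of 0 and 2 µM (0.0609).

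Of 11 ubiquitin partners and targets of MAGE proteins, 0 passed in either direction at 2 µM by edgeR or by DESeq2 (2 had an unadjusted p under 0.05). At 10 µM 3 rose and 0 fell. The shares of all genes called higher and lower were 2.96% and 1.93% at 2 µM and 13.1% and 14.1% at 10 µM. TRIM28, the ligase partner of MAGEA3, MAGEA6 and MAGEC2, was at 375 ± 91.1 CPM at 0 µM, 334 ± 68.9 at 2 µM and 404 ± 8.35 at 10 µM (SD, n = 3 each) and passed in no comparison. TRIM27, the partner of MAGEL2, rose at 10 µM by log2 1.05 (adjusted p = 3.48e-05), and PJA1, a ligase that binds MAGED1, by 1.29 (adjusted p = 3.28e-06). TRIM31 had 0, 0 and 2 counts at 0 µM and 12, 23 and 15 at 10 µM and rose by log2 4.08 (adjusted p = 0.00234). PRKAA1, the AMPK subunit known as a target of the MAGEA3/6-TRIM28 ligase, differed by 0.52 at 10 µM (adjusted p = 0.0678).

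Other X-linked cancer-testis genes were compared as a list of 63, of which 33 had a count. Some of the 30 without a count, such as CTAG1A and CTAG1B, are near-identical copies. Their reads may have been dropped, so the absence of counts does not show that they were silent. At 2 µM 5 rose and 0 fell, where 2.96% of all genes were called higher and 1.93% lower. At 10 µM 5 rose and 1 fell, where 13.1% of all genes were called higher and 14.1% lower. At 10 against 2 µM 2 rose and 3 fell, where 9.37% of all genes were called higher and 12.3% lower. PASD1 had 1, 0 and 0 counts at 0 µM, 106, 84 and 30 at 2 µM, then 4, 11 and 36 at 10 µM, so it rose by log2 7.21 at 2 µM (adjusted p = 2.18e-13). From 2 to 10 µM its difference was -2.34 (adjusted p = 3.73e-04). PAGE1 rose at 2 µM (log2 2.24, adjusted p = 4.51e-04) to 2.74 ± 0.709 CPM, and its level at 10 µM was 0.216 ± 0.137 CPM (SD, n = 3 each; log2 -3.63 against 2 µM, adjusted p = 5.17e-10). It was the gene called lower at 10 against 0 µM (log2 -1.39, adjusted p = 0.039), a call lost in 9 alternatives, with adjusted p up to 0.261 (without 10 µM replicate 1). SPANXB1 had 7 counts or fewer in every library at 0 and 2 µM and 250, 131 and 133 at 10 µM (log2 7.49 against 0 µM, adjusted p = 1.51e-22). CT83 had no count at 0 µM, 22, 25 and 11 at 2 µM, then 4, 12 and 11 at 10 µM and passed against 0 µM at both doses (adjusted p = 4.15e-05 and 6.27e-04).

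Of 25 genes of the DNA methylation machinery and regulators of cancer-testis promoters, 2 rose and 1 fell at 2 µM, and 6 rose and 4 fell at 10 µM. The shares of all genes called higher and lower were 2.96% and 1.93% at 2 µM and 13.1% and 14.1% at 10 µM. CTCFL (BORIS), a testis paralogue of CTCF reported to act at MAGE-A promoters, had 0, 0 and 1 counts at 0 µM, 17, 19 and 34 at 2 µM, then 0, 4 and 12 at 10 µM. It rose at 2 µM (log2 5.51, adjusted p = 1.84e-04). At 10 µM its log2 value was 3.24 (adjusted p = 0.0408), a call lost in 10 alternatives, with adjusted p up to 0.455 (without 10 µM replicate 3). The difference between 10 and 2 µM was -2.27 (adjusted p = 0.0362), a call lost in 7, with adjusted p up to 0.243 (without 10 µM replicate 1). ETS1, a factor of the family that binds the cores shown above, rose from 6.76 ± 5.87 CPM at 0 µM to 28.8 ± 10.8 at 2 µM and 113 ± 2.39 at 10 µM (SD, n = 3 each; log2 2.08, adjusted p = 2.68e-15, and 4.06, adjusted p = 1.81e-52). ETS2 rose at 10 µM by log2 1.72 (adjusted p = 2.29e-12).

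UHRF1, which brings the maintenance methyltransferase to replicated DNA, fell at 10 µM by 2.75 on the log2 scale (adjusted p = 6.37e-29). Its 0 µM libraries were uneven, at 230, 211 and 53.4 CPM, against 26.6, 25.8 and 20.9 at 10 µM. Measured from 0 µM replicate 3 alone, the fall of UHRF1 was smaller. DNMT3B, a de novo methyltransferase, fell at 10 µM by 1.50 (adjusted p = 9.94e-08) and TET1, a methylcytosine oxidase, by 2.69 (adjusted p = 7.93e-24). DNMT1, the maintenance enzyme itself, was at 120 ± 25.3 CPM at 0 µM and 87.4 ± 0.785 at 10 µM and passed in no comparison. DNMT3A was at 90.9 ± 15.3, 127 ± 20.7 and 63.9 ± 5.78 CPM, with a difference of -0.99 on the log2 scale between 10 and 2 µM (adjusted p = 1.14e-04).

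Markers of other cells were read beside these results. At 10 against 0 µM, 13.1% of all genes were called higher and 14.1% lower. Among 14 testis somatic and germ cell markers, UTF1 and TNP1 had no count, the summed level was 17.5 to 26.9 CPM at 0 µM, 16 to 28.7 at 2 µM and 2.96 to 4.93 at 10 µM, and 1 rose and 3 fell at 10 µM. The germ cell gene SOHLH1 rose (log2 3.16, adjusted p = 5.05e-05), and the steroid and inhibin genes INHA, STAR and CYP17A1 fell. Of 12 leukocyte markers PTPRC, CD2, MS4A1 and TYROBP had no count in any library. The leukocyte sum, 2350 to 3327 CPM at 0 µM and 63.2 to 92.1 at 10 µM, was mostly LYZ, and at 10 µM 3 of the list fell and 1 rose, CD3D (log2 0.98, adjusted p = 0.0497), a call lost in 7 alternatives. The 9 fibroblast and stellate markers summed to 29.8 to 53.6 CPM at 0 µM and 11.2 to 15.4 at 10 µM, where 2 fell (ACTA2 and PDGFRB) and 1 rose. The latter was PDGFRA, with 0, 0 and 1 counts at 0 µM and 26, 7 and 27 at 10 µM (log2 5.21, adjusted p = 1.64e-04). The part of the fall in hepatocyte markers in the members' differences was not tested.

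In the ATAC-seq data, with 2896671 to 7864321 counts in peaks per library, the X chromosome held 638 of the 58372 peaks with counts, and none lay in a member. The nearest counted peak to each member was therefore looked up, a step chosen after the peak table had been seen. It lay 45.4 kb from MAGEA4, 60.8 kb from MAGEA6, 92.8 kb from MAGEA12, 128 kb from MAGEA3, 147 kb from MAGEA10, 150 kb from MAGEA1, 430 kb from MAGEB2, 1970 kb from MAGEC1 and 2269 kb from MAGEC2. The members' median was 147 kb. By the same RefSeq gene spans, 69.4% of 19970 protein-coding genes, and 37% of the 848 on the X chromosome, had a counted peak inside. Of 80 other type I MAGE and other X-linked cancer-testis genes, 0 had one and the median was 146 kb, as in the members. In the consensus peak set 1 peak without counts, chrX:151903163-151903663, lay 8.81 kb from MAGEA4 and was not analysed here.

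**Figure D5:**
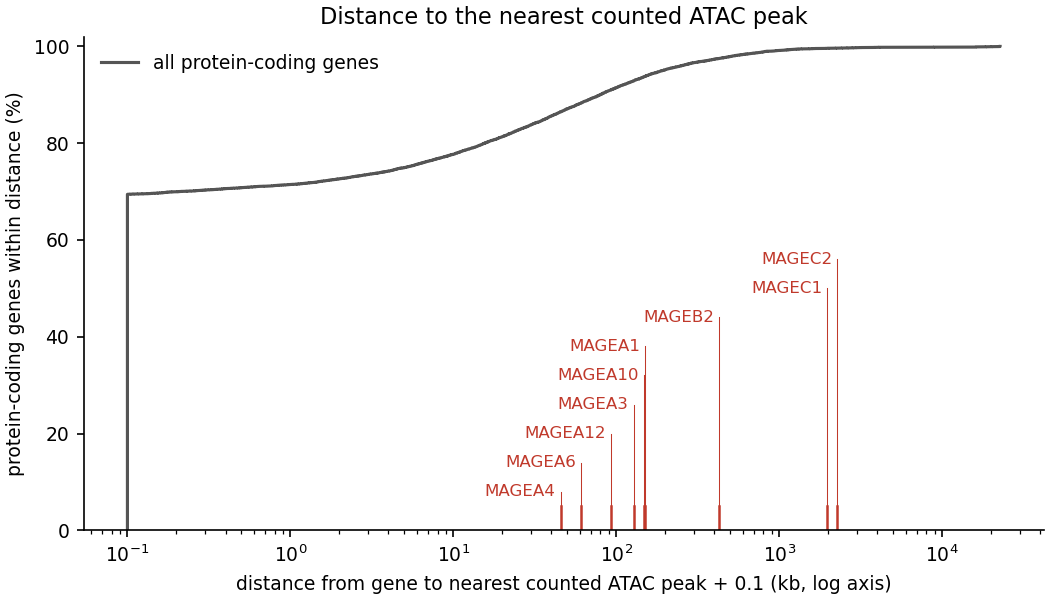
Share of protein-coding genes (y axis, percent) with a counted ATAC peak within a given distance (x axis, kb plus 0.1, log scale), and the distance of each member (red lines, whose height only separates the labels). The grey curve starts at 69.4%, the genes with a peak inside, and the members lie from 45.4 kb (MAGEA4) to 2269 kb (MAGEC2).

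The nearest peaks belong to other genes, and 6 of them serve the 9 members. At 2 against 0 µM 0 of the 6 passed by edgeR or by DESeq2 and 0 had an unadjusted p under 0.05, where 15.5% of all peaks were called higher and 7.3% lower. At 10 against 0 µM 1 passed, where 29.9% were called higher and 27.6% lower: the promoter peak of GABRE near MAGEA4, at chrX:151970536-151971036, was lower (24.5 ± 7.07 CPM, n = 3, against 15.9 ± 0.625, n = 2, SD; log2 -0.65, adjusted p = 0.00888). A fit of those 2 doses blocked by replicate number did not call it (log2 -0.48, adjusted p = 0.107). At 10 against 2 µM 1 peak passed, where 27.5% were called higher and 27.6% lower: the peak nearest MAGEB2, at chrX:30649807-30650307 and annotated to GK, was higher (log2 0.49, adjusted p = 0.0383), a call lost in 6 alternatives, with adjusted p up to 0.2. The CETN2 promoter peak, the nearest to MAGEA3, MAGEA6 and MAGEA12, held 34 ± 6.65 CPM at 0 µM (n = 3), 28.3 ± 5.02 at 2 µM (n = 3) and 32.9 ± 6.91 at 10 µM (n = 2), and passed in no comparison. Accessibility at the members' own promoters is not measured by the counted peaks.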

How the data were processed

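HepG2 RNA-seq (9 libraries) and ATAC-seq (8 libraries) were analysed from the authors' deposited raw counts per gene and raw counts per peak. The submitters' processing notes name hg38, DiffBind 3.12.0, DESeq2 1.42.1, HTSeq 2.0.4 and HISAT2 2.2.1, in roles the notes do not give. The peak caller and strand setting are not given in the sources used here. Reads of a gene and of one that overlaps it, on either strand, may therefore be mixed. The deposited normalized RNA table holds signal values: the authors' counts over 1 size factor per library, as the values show. It was used only as a check, in which its columns named 10 µM replicates 2 and 3 held each other's counts. The score column of the deposited consensus peak list is not explained in the sources used here and was not used.

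Genes with at least 1 count (34824) and all 58372 peaks entered edgeR 4.0.16 under R 4.3.3 (quasi-likelihood test, TMM scaling, all doses in 1 fit, adjusted p threshold 0.05). SE is the log2 change over the square root of the F statistic. Fits were checked on simulated counts. The libraries of 1 assay entered together, with no block. Deviations of same-numbered RNA libraries at 0 and 2 µM correlated at 0.319, 0.396 and 0.336, so numbers pair these doses. With the paired block the count of all genes called lower at 2 µM was 1025 in place of 673. Correlations with 10 µM libraries and in ATAC-seq did not meet this mark. Symbols came from the gene name table, for 62666 of 63187 genes. The members and lists were chosen with earlier results of these data known. Named genes are all members, up to 4 genes per list and comparison by smallest adjusted p, and TRIM28, CTCFL, DNMT1, DNMT3A, DNMT3B and UHRF1. Alternatives were DESeq2 1.42.0, other scalings, a count filter, blocks, and each library left out.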

Additional observations from a re-analysis of the deposited data

How the results depend on the processing

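The 10 µM calls of MAGEA3, MAGEA6 and MAGEB2 were kept under every alternative run, and low counts limit what can be said of the other members. For MAGEA3 and MAGEB2 the filter on low counts is no separate support, since they passed it only through treated libraries. The cause of the changes below was not tested. Members called higher at 2 against 0 µM numbered 1, but 0 with the filter on low counts (18999 genes tested), 2 with total counts alone, with DESeq2 and with the replicate block (over all doses or over 2), and 4 without both replicates numbered 3 of 0 and 2 µM. Leaving out 1 library gave 0 to 2 there, 3 to 5 at 10 against 0 µM, and 0 to 2 higher and 0 to 1 lower at 10 against 2 µM. At 10 against 0 µM the filter gave 3 in place of 5. At 10 against 2 µM the fit of those 2 doses gave 2 in place of 1, with or without the replicate block.

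Over all genes at 2 against 0 µM, the filter gave 611 higher and 202 lower in place of 1030 and 673, total counts gave 391 lower, the paired block over 2 doses 1025 lower, and leaving out both replicates 3 gave 1663 higher and 1080 lower. Leaving out 1 library gave 316 lower (without 2 µM replicate 1) to 994. Total counts moved the median of genes passing the filter by 0.15 at 2 µM and 0.24 at 10 µM (log2). With them 77.4% of calls were higher at 2 µM and 60.4% at 10 µM, against 60.5% and 48.2%. For peaks at 2 against 0 µM, DESeq2 gave 5825 higher in place of 9044. The fit of 2 doses gave 7094 lower in place of 4260, and 8014 with the replicate block. Leaving out 1 library gave 5324 to 9120 higher and 2405 to 7051 lower.

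Leaving out 1 library changed the sign of 4 differences that passed in no setting. MAGEC2 at 2 against 0 µM (-0.14) ran from -3.33 to 0.70 and was 0.70 when 0 µM replicate 2 was left out, 0.37 and 0.42 when the first or the last 2 µM library was, and 0.39 without both replicates 3. MAGEA4 at 10 against 0 µM (0.25) ran from -4.17 to 4.47 and was -0.28 and -0.33 when the first or the second 0 µM library was left out, and -4.17 without 10 µM replicate 3. MAGEA1 at 10 against 2 µM (-0.22) ran from -1.28 to 3.37 and was 0.26 and 0.29 with the replicate block over all or 2 doses, 0.32 without 10 µM replicate 3 and 3.37 without 2 µM replicate 2. MAGEA3 at 10 against 2 µM (0.32) ran from 0.72 down to -0.28, the last without 10 µM replicate 3. Against the fit of the same doses without it, the block changed the call of MAGEA6 at 2 against 0 µM and no other member's.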
